A study of Mus musculus with 8 samples.

Results

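The changes that PM2.5 brought to wildtype EpH4 spheroids were read across all genes that passed a filter on low counts. EpH4 is a mouse mammary epithelial cell line, labelled with the genotype WT and grown here in 3D as spheroids, which are rounded aggregates of cells. PM2.5 is fine airborne particulate matter, a mixture of soot, metals, salts and organic compounds. The comparison took the 2 libraries labelled as PM2.5-treated wildtype EpH4 and the 2 labelled as untreated wildtype EpH4, 4 of the 8 libraries of the study. The other 4 came from EpH4-AS spheroids, a malignantly transformed form of the line that the labels call AS-transformed, without and with PM2.5. All 8 carry one batch label and were made from polyadenylated RNA. The labels used here give neither the dose nor the duration of exposure. They also leave unsaid if the paired libraries of each group were grown apart, so that a p-value may rest on technical spread alone. The count table listed 25413 genes, of which 13716 passed the filter on low counts and are the members described here. The filter ran over all 8 libraries, so the tested genes include some at 0 CPM in EpH4. Such genes could not be called in EpH4, yet they count in the shares of all tested genes given below. The 4 EpH4 libraries held 24608176 to 27765982 counts.

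Inhaled or added particles bring metals, quinones and polycyclic hydrocarbons into contact with cells. Cells answer such compounds through NRF2, which raises glutathione and NADPH-forming enzymes, through the aryl hydrocarbon receptor and through NF-kB, the transcription factor of inflammatory genes. Programmes that read the state of the cell, such as cell division, protein synthesis, the unfolded protein response of the endoplasmic reticulum and the p53 response to DNA damage, can shift as well.

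The epithelial label was checked against marker genes. Of 22 epithelial markers, 4 had no count in any of the 4 libraries and 21 stayed under 1 CPM, the count scaled to library size, in all of them. Their summed level was 9.82 and 9.78 CPM untreated and 8.19 and 5.43 CPM with PM2.5, and Epcam, a surface marker of epithelia, was at 0 in each library. Cdh1, the epithelial cadherin, reached at most 0.0293 RPKM, which scales reads by transcript length and library size, whereas Vim, the intermediate filament of mesenchymal cells, stood at 769 to 899 RPKM. The 24 mesenchymal and fibroblast markers summed to 18296 and 17783 CPM untreated and 16257 and 16825 CPM with PM2.5. Of these sums Fn1, fibronectin, alone held 12084 and 11991 CPM untreated and 10092 and 10292 CPM with PM2.5. The list was not uniformly high. In it 3 markers, Thy1, Lum and Fap, were under 1 CPM in all 4 libraries, and the collagen genes Col1a1 and Col3a1 reached at most 5.30 and 1.26 CPM. Ovol1, an epithelial transcription factor and the one epithelial marker above 1 CPM, fell from 6.36 and 6.36 to 4.19 and 1.89 CPM (log2 fold change -1.05 ± 0.25 SE, n = 2 and 2, adjusted p = 0.0065), a call that was lost without PM2.5 replicate 2 (log2 -0.60, adjusted p = 0.059), while without PM2.5 replicate 1 the log2 change was -1.75. Of 20 mammary luminal and basal markers 14 were under 1 CPM in all 4 libraries. Among the 9 that were tested, 2 rose and 1 fell. Csn3, a casein gene, stood at 2.87 and 2.47 CPM untreated and 0.762 and 0.699 CPM with PM2.5. Gata3, a luminal transcription factor, was at 58.3 and 53.2 CPM untreated and 57.1 and 62.8 CPM with PM2.5 (log2 0.10 ± 0.07, adjusted p = 0.30), and Krt14, a basal keratin, rose from 3.31 and 3.02 to 8.31 and 8.88 CPM (log2 1.44 ± 0.16, adjusted p = 3.7e-05). Apart from Ovol1, the epithelial markers were under 1 CPM in the libraries labelled epithelial. In bulk RNA, fewer cells of a kind and less RNA per cell cannot be told apart, which holds for every level given below.

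PM2.5 changed 3726 of 13716 tested genes, 27.2% of them, at an adjusted p under 0.05 in edgeR's quasi-likelihood test. Of these, 1956 were higher (14.3% of tested genes) and 1770 lower (12.9%). In 3720 of the called genes the 2 PM2.5 libraries lay on one side of both untreated libraries, against 31% of all tested genes with both PM2.5 libraries above and 30% with both below. The call and this separation rest on the same values, so the count is no further support for the calls. Most changes were small. 3341 called genes (89.7%) moved by less than 2-fold, and 1678 by less than 1.25-fold. The median called rise was 0.42 and the median called fall -0.30 on the log2 scale, against a median of 0.00 over all tested genes. Rises and falls were not alike in size. Under 1.25-fold, 1000 falls stood against 678 rises, while from 1.5- to 2-fold there were 379 rises and 108 falls, and above 2-fold 271 rises (1.98% of tested genes) and 114 falls (0.831%). Without PM2.5 replicate 2 the number of called genes was 2145, and without untreated replicate 2 it was 2451.

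**Figure D1:**
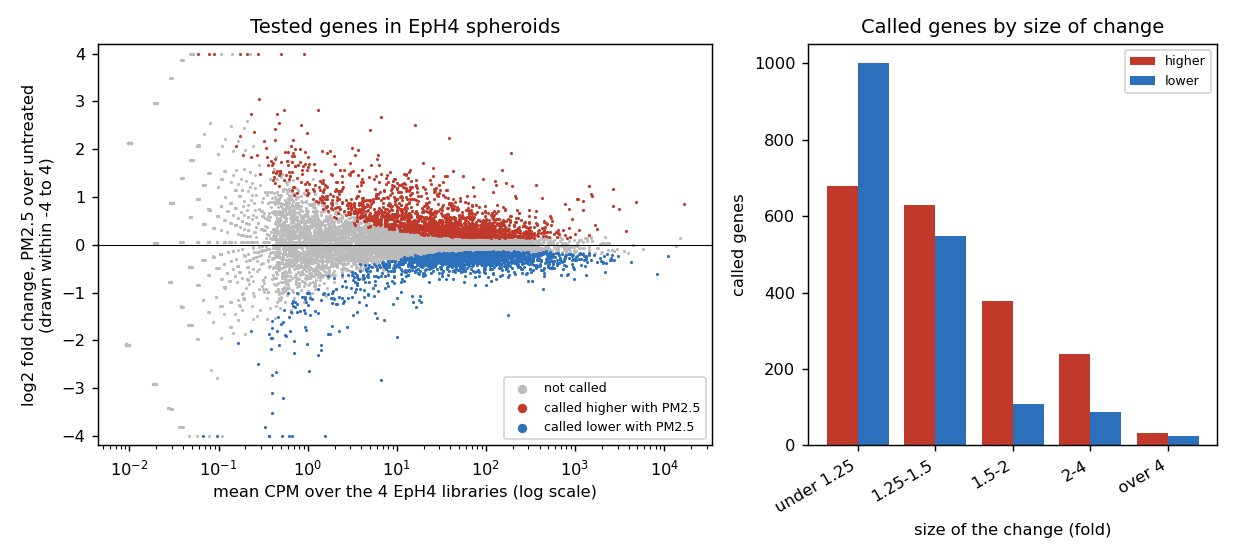
Left, the log2 fold change (PM2.5 over untreated) of each tested gene against its mean CPM over the 4 EpH4 libraries on a log axis; genes with no count in these libraries are not drawn. Right, the number of called genes by size of change, where 1000 falls and 678 rises were under 1.25-fold and rises outnumbered falls in the bars above that.

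Abundant genes were called more often than scarce ones. When tested genes were divided into 5 equal classes by mean CPM, 8.71% of the lowest and 42.7% of the highest class were called. Their changes were not larger, with a median absolute log2 change of 0.44 in the lowest class and 0.14 in the highest. Genes called higher took 15.1 and 13.7% of the counts of tested genes in the untreated libraries and 19.5 and 20.9% in the PM2.5 libraries. Genes called lower took 29.6 and 31.3% untreated and 25.4 and 23.8% with PM2.5. These sums were formed from the calls themselves and describe how much of the library the calls cover. Most genes below are grouped in lists, whose counts of called members are set beside the 14.3% and 12.9% of all tested genes. These shares pool all levels and were not matched to the levels of a list's members. For a list of abundant genes they are a low yardstick.

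**Figure D2:**
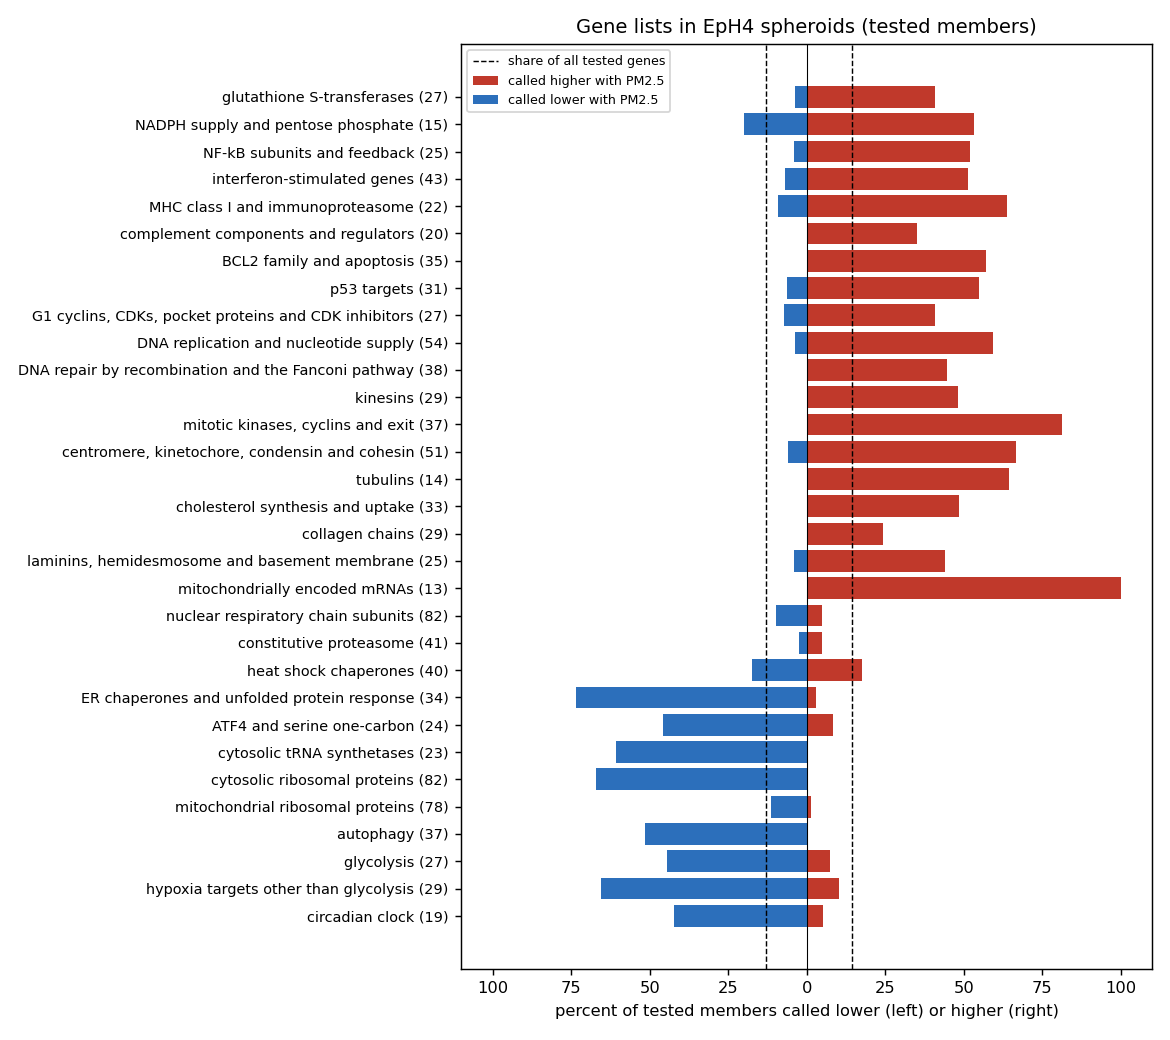
Percent of the tested members of each gene list that were called higher (right, red) or lower (left, blue) with PM2.5 in EpH4, with the number of tested members in parentheses. Dashed lines mark the shares of all tested genes, 14.3% higher and 12.9% lower; cell division lists extend far to the right, and ribosomal protein, tRNA synthetase, endoplasmic reticulum and hypoxia lists far to the left.

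Promoters of 3 kinds of genes described below are shown first, for the letters that known factors of these genes read. They come from RefSeq on GRCm38.p6, not the GRCm39 build of the counts, and cover the 150 bases before an annotated start, printed 5′ to 3′ on the gene's strand. Capitals mark the motif on either strand. The printed genes were picked among called list members with a match in these bases and with groups that did not overlap, smallest p first. That each holds a match and changed is therefore set by the picking and is no result. Motifs were searched from 250 bases before to 50 after each start, and 10441 tested genes had a promoter in the table. The ER stress response element, CCAAT and CCACG with 9 bases between them, is bound by ATF6 with NF-Y, whose own box is the CCAAT it contains. It matched 9 of 29 promoters of the endoplasmic reticulum list (31%) and 0.137% of all promoters. Hspa5, Dnajc3 and Pdia6 fell, while Creld2 rose with the same element.
Hspa5, chr2:34771940-34772089, plus strand: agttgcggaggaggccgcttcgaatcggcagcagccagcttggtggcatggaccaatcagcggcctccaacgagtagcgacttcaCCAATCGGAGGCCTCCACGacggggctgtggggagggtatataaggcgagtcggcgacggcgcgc
Creld2, chr15:88819496-88819645, plus strand: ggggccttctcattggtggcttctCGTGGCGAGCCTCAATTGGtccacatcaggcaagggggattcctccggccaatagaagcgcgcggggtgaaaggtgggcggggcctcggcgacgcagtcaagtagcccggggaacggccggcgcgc
Dnajc3, chr14:118937782-118937931, plus strand: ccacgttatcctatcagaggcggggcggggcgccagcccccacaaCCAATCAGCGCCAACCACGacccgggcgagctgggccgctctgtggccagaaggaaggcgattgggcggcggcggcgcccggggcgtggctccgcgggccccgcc
Pdia6, chr12:17266439-17266588, plus strand: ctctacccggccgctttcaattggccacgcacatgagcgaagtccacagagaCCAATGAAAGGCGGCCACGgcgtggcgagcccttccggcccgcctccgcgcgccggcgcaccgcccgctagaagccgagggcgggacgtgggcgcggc
The C/EBP-ATF response element, TGATGNAA, is read by ATF4. It matched 8 of 21 promoters of the ATF4 list and 5 of 16 of the tRNA synthetase list, against 4.51% of all promoters. Of the genes printed for it, Gars1 and Nupr1 fell and Slc7a11 rose.
Gars1, chr6:55037851-55038000, plus strand: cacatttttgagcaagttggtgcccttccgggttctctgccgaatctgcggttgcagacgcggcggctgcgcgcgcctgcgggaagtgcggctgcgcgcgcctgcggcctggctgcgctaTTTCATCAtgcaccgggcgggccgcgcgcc
Nupr1, chr7:126625471-126625620, minus strand: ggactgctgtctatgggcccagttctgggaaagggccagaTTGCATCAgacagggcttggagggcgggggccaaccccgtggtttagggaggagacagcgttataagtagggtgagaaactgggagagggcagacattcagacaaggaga
Slc7a11, chr3:50443614-50443763, minus strand: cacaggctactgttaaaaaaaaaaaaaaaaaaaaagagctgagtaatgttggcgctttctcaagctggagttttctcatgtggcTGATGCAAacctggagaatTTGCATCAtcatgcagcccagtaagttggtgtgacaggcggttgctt
The cell cycle homology region, TTTGAA, is a site of the DREAM and MuvB complexes in genes of mitosis. It matched 17 of 30 promoters of the mitotic list (56.7%), 16 of 43 of the centromere and kinetochore list (37.2%) and 20.2% of all promoters. Among all genes called higher the share was 18.1%. All 4 genes shown rose.
Ect2, chr3:27153879-27154028, minus strand: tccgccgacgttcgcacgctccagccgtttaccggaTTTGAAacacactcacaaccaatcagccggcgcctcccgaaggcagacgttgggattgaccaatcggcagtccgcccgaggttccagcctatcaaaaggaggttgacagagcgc
Ube2c, chr2:164769779-164769928, plus strand: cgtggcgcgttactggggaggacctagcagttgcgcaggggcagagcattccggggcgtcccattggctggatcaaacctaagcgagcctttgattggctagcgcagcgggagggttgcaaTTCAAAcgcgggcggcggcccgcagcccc
Mki67, chr7:135716380-135716529, minus strand: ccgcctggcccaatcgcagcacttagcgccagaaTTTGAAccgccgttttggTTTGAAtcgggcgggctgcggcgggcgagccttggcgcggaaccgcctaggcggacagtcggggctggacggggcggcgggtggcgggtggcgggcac
Cdc20, chr4:118437344-118437493, minus strand: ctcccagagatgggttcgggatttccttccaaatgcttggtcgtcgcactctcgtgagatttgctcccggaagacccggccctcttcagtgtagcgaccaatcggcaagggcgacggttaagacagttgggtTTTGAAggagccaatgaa
For the antioxidant response element core, TGACNNNGC, the share was 3 of 13 promoters of the glutathione synthesis list (23.1%), 16% of the glutathione transferase list and 12.9% of the carbonyl and quinone list, against 14% of all promoters in this window. A match is a stretch of letters and not a measured binding site, and the shares were not tested.

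Enzymes that handle oxidants and reactive metabolites were among the rises. Of 27 tested glutathione S-transferase genes, which attach glutathione to electrophiles, 11 rose and 1 fell, with a median log2 change of 0.11. Without PM2.5 replicate 1, 7 rose. Gsta4, which acts on products of lipid peroxidation, stood at 23.5 and 20.2 CPM in the untreated libraries and 67.2 and 60.9 CPM with PM2.5 (log2 1.55 ± 0.08, adjusted p = 7.1e-08). Mgst1, a membrane-bound transferase, stood at 23.8 and 21.5 and 47.9 and 52.6 CPM in the same order (log2 1.15 ± 0.07, adjusted p = 2.6e-07). In neither gene did the groups overlap, which was a condition for naming any gene below but the preset key genes. Such separation is therefore no further support. Gsto1, which reduces dehydroascorbate and arsenicals, was the one member that fell, from 284 and 318 to 246 and 212 CPM (log2 -0.39 ± 0.08, adjusted p = 0.0019). Reads from close copies within this family may be divided between members by the counting.

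Glutathione reductase and quinone reductase consume NADPH. Of 15 genes of NADPH formation and the pentose phosphate path, 8 rose and 3 fell (median log2 0.19), with 1 fall without PM2.5 replicate 2. Taldo1, transaldolase, went from 114 and 112 CPM to 202 and 189 CPM (log2 0.79 ± 0.05, adjusted p = 5.4e-07). Pgd, which forms NADPH from 6-phosphogluconate, went from 105 and 101 CPM to 175 and 159 CPM (log2 0.70 ± 0.06, adjusted p = 2.6e-06). The 2 libraries of each group lay close together, and the groups stood well apart. Of 19 thioredoxin and peroxiredoxin genes 5 rose and 2 fell (median log2 0.07), with 1 fall when PM2.5 replicate 2 or untreated replicate 2 was left out. Txnip, which binds and blocks thioredoxin, fell from 614 and 663 to 457 and 449 CPM (log2 -0.49 ± 0.05, adjusted p = 2.3e-05). Gpx4, the lipid peroxidase, stood at 248 and 253 CPM untreated and 249.6 and 256 CPM with PM2.5 (log2 0.01 ± 0.05, adjusted p = 0.88) and did not pass the test. Srxn1, sulfiredoxin, did not pass either, at 227 and 230.4 CPM and 249 and 219 CPM (log2 0.03 ± 0.07, adjusted p = 0.78). Of 16 regulators of the NRF2 and aryl hydrocarbon receptor pathways 3 rose and 1 fell (median log2 -0.04), with 3 falls without untreated replicate 1. Nfe2l2, which encodes NRF2 (log2 0.12 ± 0.05, adjusted p = 0.079), and Keap1, which marks NRF2 for decay (log2 0.14 ± 0.06, adjusted p = 0.07), did not pass, while Ahr, the aryl hydrocarbon receptor, rose from 36.5 and 31.8 to 43.2 and 51.8 CPM (log2 0.47 ± 0.09, adjusted p = 0.0016).

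In metal handling, of 33 tested genes of iron and heme, 9 rose and 4 fell (median log2 0.15). With PM2.5 replicate 2 left out, 5 rose and 2 fell. Slc48a1, which carries heme out of lysosomes, stood at 433 and 427 CPM untreated and 646 and 627 CPM with PM2.5 (log2 0.57 ± 0.06, adjusted p = 1.6e-05). Blvrb, which reduces biliverdin after heme breakdown, stood at 89.5 and 86 and 129 and 124 CPM (log2 0.52 ± 0.05, adjusted p = 1.5e-05). Of 25 genes of metallothioneins, zinc and copper 4 rose and 2 fell (median log2 0.09), shares near or below those of all tested genes. Slc30a1, the zinc exporter of the plasma membrane, went from 25.2 and 29.9 to 51.4 and 48.7 CPM (log2 0.86 ± 0.08, adjusted p = 6.0e-06), and the groups did not overlap in any of these genes. Slc30a5, which loads zinc into the secretory path, fell from 114 and 121 to 81.1 and 73.4 CPM (log2 -0.60 ± 0.06, adjusted p = 1.2e-05). Mt1, a metallothionein, rose from 259 and 250.3 to 357 and 349.7 CPM (log2 0.47 ± 0.05, adjusted p = 3.3e-05), whereas Mt2 was at 615 and 609 CPM and 735 and 637 CPM with a change that did not pass (log2 0.17 ± 0.09, adjusted p = 0.18).

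Genes of cell division were called higher more often than all tested genes, in G1 control, replication and mitosis alike. Among 27 genes of G1 control, 11 rose and 2 fell. Ccnd1, the cyclin that opens G1, stood at 341 and 301 CPM untreated and 409 and 449 CPM with PM2.5 (log2 0.42 ± 0.06, adjusted p = 3.9e-04). E2f8, a repressor made late in S phase, stood at 12.1 and 8.59 and 22.7 and 24.4 CPM (log2 1.18 ± 0.13, adjusted p = 2.4e-05). Cdkn2b, an inhibitor of CDK4 and CDK6, fell from 42.9 and 40.6 to 32.3 and 31.8 CPM (log2 -0.38 ± 0.06, adjusted p = 6.1e-04), and Cdkn1b was at 172 and 204 and 182 and 169 CPM with overlapping groups (log2 -0.10 ± 0.07, adjusted p = 0.32). Without untreated replicate 1, Cdkn1b passed as lower (log2 -0.22, adjusted p = 0.0092). Myc, a driver of growth, was at 162 and 170.4 CPM and 168 and 168 CPM (log2 0.02 ± 0.05, adjusted p = 0.86). Without PM2.5 replicate 2, or without untreated replicate 2, 6 of the G1 genes rose.

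Of 54 genes of DNA replication and nucleotide supply, 32 rose and 2 fell (median log2 0.31). Rrm2, the subunit that limits ribonucleotide reductase, stood at 27.8 and 16.9 CPM untreated and 47.6 and 51.9 CPM with PM2.5 (log2 1.15 ± 0.15, adjusted p = 8.7e-05). Mcm10, which helps to start the replicative helicase, stood at 5.89 and 4.93 and 10.7 and 10.5 CPM (log2 0.97 ± 0.12, adjusted p = 6.1e-05). The untreated libraries differed widely from each other in Rrm2, while the PM2.5 libraries were close. Mcm2, a helicase subunit, went from 92.2 and 87.3 to 107 and 125 CPM (log2 0.37 ± 0.07, adjusted p = 0.0015). Without PM2.5 replicate 2 there were 21 called rises, and without untreated replicate 2 there were 20. In recombination repair and the Fanconi pathway, 17 of 38 genes rose and 0 fell, among them Bard1 at 4.65 and 3.66 CPM untreated and 7.96 and 8.47 CPM with PM2.5 (log2 0.98 ± 0.15, adjusted p = 3.4e-04). Without PM2.5 replicate 1, 11 of these repair genes rose.

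The mitotic machinery had larger median changes than the replication genes. In the list of mitotic kinases, cyclins and exit factors the median log2 change was 1.10, with 30 of 37 called higher and 0 lower. For centromere, kinetochore, condensin and cohesin genes it was 0.68, with 34 of 51 higher and 3 lower. Anln, an actin-binding protein of the cleavage furrow, stood at 48.8 and 36.6 CPM untreated and 99 and 99.8 CPM with PM2.5 (log2 1.21 ± 0.10, adjusted p = 2.3e-06). Ect2, which is needed for cytokinesis, stood at 18.4 and 15 and 36.4 and 35.5 CPM (log2 1.10 ± 0.09, adjusted p = 2.9e-06). Cenpe, the motor that carries chromosomes along spindle fibres, stood at 16.8 and 11.7 and 34.8 and 34.5 CPM (log2 1.28 ± 0.11, adjusted p = 6.0e-06). In these 3 genes the PM2.5 libraries were almost equal, and untreated replicate 2 was below replicate 1. Ube2c and Cdc20, which work with the ubiquitin ligase that ends mitosis, rose as well (log2 1.57 and 1.28), as did Mki67, the proliferation marker (log2 1.25). Smc1a, a cohesin subunit, did not pass the test, at 108 and 102 CPM and 107 and 112 CPM (log2 0.06 ± 0.05, adjusted p = 0.46).

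Of 29 kinesin genes, the motors of microtubules, 14 rose and 0 fell (median log2 0.21). Kif15 stood at 8.65 and 6.52 CPM untreated and 17.3 and 17.2 CPM with PM2.5 (log2 1.18 ± 0.11, adjusted p = 8.1e-06), and Kif20a, needed for cytokinesis, at 9.09 and 4.85 and 20.0 and 20.5 CPM (log2 1.53 ± 0.17, adjusted p = 2.6e-05). Of 14 tubulin genes, 9 rose and 0 fell (median log2 0.38) and 5 rose without PM2.5 replicate 2. Tubb2a went from 27.4 and 19.5 to 40.2 and 44 CPM (log2 0.84 ± 0.12, adjusted p = 1.7e-04) and Tubb6 from 104 and 92.9 to 138 and 148 CPM (log2 0.54 ± 0.06, adjusted p = 5.1e-05). Tubulin genes resemble each other closely, so reads could be exchanged between them. Among replication-dependent histones, 27 of 51 rose and 0 fell, with H1f2 at 19.9 and 17.9 and 55.2 and 46.7 CPM (log2 1.43 ± 0.10, adjusted p = 7.1e-07). Their mRNAs mostly lack a poly(A) tail and so are only partly caught by polyadenylated RNA libraries.

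The factor p53 answers DNA damage. Of 31 p53 targets 17 rose and 2 fell (median log2 0.30), 5 fell without untreated replicate 1 and 0 without PM2.5 replicate 2. Mdm2, the ligase that degrades p53, stood at 199 and 202 CPM untreated and 292 and 286 CPM with PM2.5 (log2 0.53 ± 0.05, adjusted p = 6.3e-06). Ccng1, a cyclin induced by p53, stood at 399 and 425 and 617 and 642 CPM (log2 0.61 ± 0.05, adjusted p = 3.9e-06). Zmat3, an RNA-binding p53 target, stood at 185 and 187 and 266 and 278 CPM (log2 0.55 ± 0.05, adjusted p = 6.5e-06). In each the untreated libraries were close to each other and both PM2.5 libraries lay well above them. Cdkn1a, the p53-induced inhibitor p21, rose less, from 560.5 and 584 to 707 and 701 CPM (log2 0.30 ± 0.07, adjusted p = 0.0046). In the list of BCL2 family and apoptosis genes 20 of 35 rose and 0 fell. They included genes that promote and genes that block cell death, with Bak1, which opens the mitochondrial membrane, at 51.7 and 44.5 and 64.7 and 66.8 CPM (log2 0.45 ± 0.07, adjusted p = 5.7e-04), Tnfrsf10b, a death receptor, at 70.4 and 75.6 and 96.7 and 98.7 CPM (log2 0.42 ± 0.06, adjusted p = 1.2e-04), and Bcl2l1, which blocks death, at 80.5 and 85.2 and 97.6 and 106 CPM (log2 0.30 ± 0.06, adjusted p = 0.0025). Birc5, both a death inhibitor and a part of the mitotic chromosome complex, rose the most of those named, from 11.6 and 7.79 to 24.4 and 21.6 CPM (log2 1.24 ± 0.14, adjusted p = 2.7e-05).

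**Figure D3:**
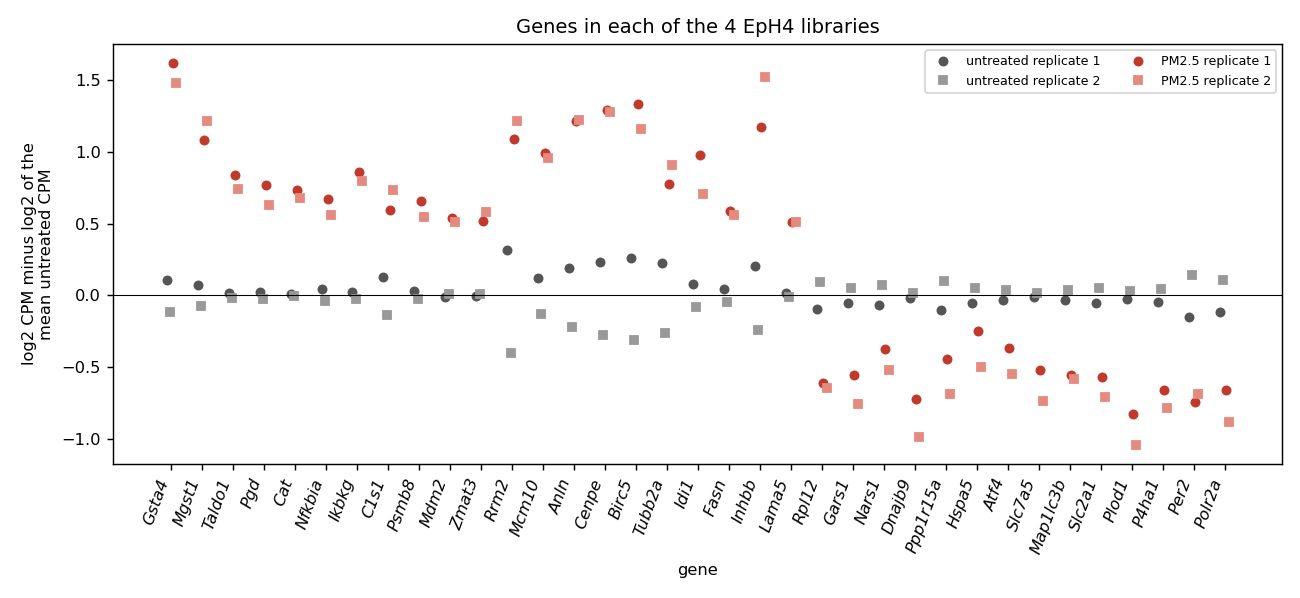
Log2 CPM of 35 genes in each of the 4 EpH4 libraries, relative to the log2 of the mean untreated CPM of the gene; grey symbols are untreated and red ones PM2.5 libraries, circles replicate 1 and squares replicate 2. The groups do not overlap in any gene drawn, a condition for naming all but the preset key genes. The untreated libraries are well apart in Rrm2, where replicate 1 was at 27.8 CPM and replicate 2 at 16.9 CPM.

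In inflammatory signalling, 13 of 25 NF-kB subunits and feedback genes rose and 1 fell (median log2 0.25). Ikbkg, the regulatory subunit of the kinase that releases NF-kB, stood at 97.1 and 94.1 CPM untreated and 173 and 166 CPM with PM2.5 (log2 0.83 ± 0.06, adjusted p = 7.6e-07). Nfkbia, the inhibitor that NF-kB induces against itself, stood at 91.6 and 86.4 and 142 and 131 CPM (log2 0.62 ± 0.06, adjusted p = 6.0e-06). The groups were clear of each other in both genes. Of 17 interleukins and related cytokines 4 rose and 0 fell (median log2 0.11). Il33, an alarmin held in the nucleus, rose from 202 and 159 to 287 and 284 CPM (log2 0.66 ± 0.09, adjusted p = 1.1e-04), and Il1a, a second alarmin, from 2.73 and 2.62 to 7.81 and 10.8 CPM (log2 1.79 ± 0.22, adjusted p = 5.6e-05). Il6 was low, at 7.92 and 6.01 CPM untreated and 10.7 and 14.2 CPM with PM2.5 (log2 0.83 ± 0.18, adjusted p = 0.0036), and without PM2.5 replicate 2 its adjusted p was 0.059 (log2 0.62). Among 18 acute phase, adhesion and prostaglandin genes 8 rose and 1 fell (median log2 0.40), and the falls numbered 3 without untreated replicate 1, 2 without PM2.5 replicate 1 and 0 without either replicate 2. Ptgs2, which forms prostaglandins, rose from 763 and 689.9 to 1346 and 1459.6 CPM (log2 0.95 ± 0.08, adjusted p = 2.7e-06), and Slco2a1, which takes prostaglandins back up, from 32.7 and 36.4 to 71.1 and 64 CPM (log2 0.97 ± 0.08, adjusted p = 3.0e-06). Lcn2 and Lif, both inflammatory products, did not pass the test (log2 -0.08 and 0.11).

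In antigen presentation, of 22 genes of MHC class I and the immunoproteasome, 14 rose and 2 fell (median log2 0.31), with 0 falls without PM2.5 replicate 2 or without untreated replicate 2. Class I genes are close copies of each other, so reads may be shared among them. Psmb8, an immunoproteasome subunit, stood at 52 and 50.1 CPM untreated and 80.5 and 74.7 CPM with PM2.5 (log2 0.60 ± 0.07, adjusted p = 4.6e-05). Nlrc5, the activator of class I genes, stood at 26.8 and 25.9 and 38.4 and 41.1 CPM (log2 0.59 ± 0.07, adjusted p = 7.6e-05). Neither overlapped between groups, while B2m, the class I light chain, did, at 2123 and 2017 and 1987 and 2239.7 CPM (log2 0.03 ± 0.07, adjusted p = 0.81). 7 of 20 complement genes rose and 0 fell, and 4 rose without untreated replicate 2. C1s1, a protease of the first complement complex, went from 200.1 and 166 to 276 and 305 CPM (log2 0.67 ± 0.08, adjusted p = 7.8e-05). Among 43 interferon-stimulated genes 22 rose and 3 fell, but with PM2.5 replicate 1 left out 13 rose. Ifi203, of the nuclear DNA-binding family, was among those that fell, from 200.1 and 215 to 139.9 and 144 CPM (log2 -0.55 ± 0.05, adjusted p = 8.1e-06). Irf7, a regulator of interferon genes, was at 1.35 and 1.07 CPM untreated and 2.02 and 1.23 CPM with PM2.5 (log2 0.43 ± 0.28, adjusted p = 0.28). Of 18 immune cell markers 14 were under 1 CPM in all 4 libraries, and the list summed to 73.9 and 60.3 CPM untreated and 67.8 and 84.4 CPM with PM2.5.

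Protein synthesis held many falls. Of 82 cytosolic ribosomal protein genes 55 fell and 0 rose, with a median log2 change of -0.27. Together they took 8.05 and 8.79% of counts in the untreated libraries and 7.39 and 6.88% with PM2.5, and the exact permutation test of this share gave a two-sided p of 0.33, the smallest that 2 against 2 libraries allow. Rpl12 stood at 1514 and 1724 CPM untreated and 1056 and 1033 CPM with PM2.5 (log2 -0.63 ± 0.07, adjusted p = 2.6e-05). Rplp0, of the ribosomal stalk, stood at 2126 and 2337 and 2374 and 2219 CPM with overlapping groups (log2 0.04 ± 0.06, adjusted p = 0.67). Ribosomal protein genes have many processed copies in the genome, and how reads that match several copies were assigned is not given in the sources used here. Without PM2.5 replicate 2, 34 ribosomal protein genes fell. Mitochondrial ribosomal proteins moved less, with 9 of 78 lower and 1 higher (median log2 -0.04), a share of falls below that of all tested genes, with 2 falls without PM2.5 replicate 2 and 5 without untreated replicate 2.

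Of 23 cytosolic tRNA synthetases, which charge tRNAs with amino acids, 14 fell and 0 rose (median log2 -0.20), and 9 fell without PM2.5 replicate 2. Gars1, which charges glycine, stood at 530.3 and 570.0 CPM untreated and 374 and 326 CPM with PM2.5 (log2 -0.65 ± 0.06, adjusted p = 1.2e-05). Nars1, which charges asparagine, stood at 426 and 469.6 and 345 and 312 CPM (log2 -0.45 ± 0.06, adjusted p = 1.4e-04). Atf4, the transcription factor that drives these enzymes under amino acid shortage, was itself lower, at 625 and 656 CPM untreated and 496 and 438 CPM with PM2.5 (log2 -0.46 ± 0.06, adjusted p = 1.5e-04). The groups were apart in all of these. Of 24 genes of ATF4 and serine one-carbon metabolism 11 fell and 2 rose. Slc7a5, the importer of large neutral amino acids, fell from 251 and 257 to 177 and 153 CPM (log2 -0.62 ± 0.06, adjusted p = 1.3e-05), and Asns, asparagine synthetase, from 318 and 355 to 286 and 261 CPM (log2 -0.30 ± 0.06, adjusted p = 0.003). Slc7a11, the cystine importer and a target of both ATF4 and NRF2, went the other way, from 91.1 and 103 to 242 and 230.3 CPM (log2 1.29 ± 0.07, adjusted p = 7.1e-08).

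In the endoplasmic reticulum, where secreted proteins fold, 25 of 34 chaperone and unfolded protein response genes fell and 1 rose (median log2 -0.23). Hspa5, the main chaperone BiP, stood at 4547 and 4903 CPM untreated and 3975 and 3342 CPM with PM2.5 (log2 -0.37 ± 0.09, adjusted p = 0.0089). Dnajb9, a co-chaperone induced by IRE1 and XBP1, stood at 127 and 130.1 and 77.7 and 64.6 CPM (log2 -0.85 ± 0.08, adjusted p = 7.8e-06). Ern1, which encodes the sensor IRE1, stood at 202 and 241 and 149.9 and 137 CPM (log2 -0.63 ± 0.08, adjusted p = 6.1e-05). Both PM2.5 libraries were below both untreated ones in each, and PM2.5 replicate 2 was the lower of the pair every time. Ppp1r15a, which restores translation after stress, fell from 357 and 409 to 282 and 238 CPM (log2 -0.56 ± 0.08, adjusted p = 2.1e-04), and Xbp1 from 203 and 224 to 190.4 and 176 CPM (log2 -0.22 ± 0.06, adjusted p = 0.018). Of the genes named for the promoters shown above, Dnajc3 and Pdia6 fell (log2 -0.33 and -0.27). Creld2, a stress-induced secreted disulfide enzyme, was the one member that rose, from 121 and 124 to 173 and 155 CPM (log2 0.42 ± 0.07, adjusted p = 8.7e-04). Without PM2.5 replicate 2, 12 genes of the list fell, and without untreated replicate 2, 16. Hspa5 lost its call without PM2.5 replicate 2 (log2 -0.25, adjusted p = 0.086), and Xbp1 lost it without PM2.5 replicate 2 (log2 -0.16, adjusted p = 0.14) and without untreated replicate 2 (log2 -0.15, adjusted p = 0.13).

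Of 40 heat shock genes 7 rose and 7 fell, and 4 rose with either untreated library left out. Hsp90ab1, a constitutive cytosolic chaperone, rose from 1586 and 1512 to 1961 and 1919 CPM (log2 0.32 ± 0.06, adjusted p = 0.001), while Hspa1a, the inducible one, was at 13.6 and 12.3 and 14 and 8.47 CPM (log2 -0.20 ± 0.19, adjusted p = 0.47) and passed as lower without PM2.5 replicate 1 (log2 -0.61, adjusted p = 0.024). 2 of 41 constitutive proteasome genes rose and 1 fell, fewer than the shares of all tested genes, though 8 rose without untreated replicate 1. In autophagy, which delivers cell contents to lysosomes, 19 of 37 genes fell and 0 rose, and 12 fell without PM2.5 replicate 2. Map1lc3b, which coats the forming vesicle, stood at 241 and 253 CPM untreated and 168 and 164 CPM with PM2.5 (log2 -0.57 ± 0.05, adjusted p = 8.5e-06). Sqstm1, the cargo receptor p62, was at 1456 and 1545 and 1437 and 1361 CPM (log2 -0.10 ± 0.06, adjusted p = 0.23), lower in both PM2.5 libraries but not past the threshold.

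13 of 13 mitochondrially encoded mRNAs rose (median log2 0.99), while of 82 nuclear genes for subunits of the same complexes 4 rose and 8 fell (median -0.06), both shares below those of all tested genes. Without untreated replicate 1, 8 nuclear subunits rose. Without PM2.5 replicate 1, 4 fell, and without PM2.5 replicate 2, 0 rose. The mitochondrial share of counts was 2.73 and 2.21% untreated and 4.23 and 5.03% with PM2.5. Of 44 nuclear genes that copy, transcribe and translate the mitochondrial genome, 4 rose and 2 fell. Tfam, which packs and transcribes it, was at 34.3 and 33.9 CPM and 35.9 and 33 CPM (log2 0.02 ± 0.07, adjusted p = 0.91). Whether the number of mitochondrial genomes, their transcription or the lifetime of their RNA differed was not tested.

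In glycolysis and the response to low oxygen falls outnumbered rises. 12 of 27 glycolytic genes were lower and 2 higher, and 19 of 29 other hypoxia targets were lower and 3 higher (medians -0.18 and -0.32). Slc2a1, the glucose importer GLUT1, stood at 944 and 1018 CPM untreated and 662 and 600.2 CPM with PM2.5 (log2 -0.64 ± 0.06, adjusted p = 1.3e-05). Plod1, a lysyl hydroxylase of collagen, stood at 562 and 585 and 323 and 278 CPM (log2 -0.93 ± 0.07, adjusted p = 1.7e-06). Egln1, the oxygen sensor that marks HIF for decay and is also its target, stood at 519 and 551 and 379 and 336 CPM (log2 -0.58 ± 0.06, adjusted p = 2.1e-05). None of the 3 overlapped between groups. Hif1a mRNA itself rose, from 306 and 310.0 to 353 and 365 CPM (log2 0.22 ± 0.05, adjusted p = 0.0033), and Pdk1, a classical target, was at 151 and 153 and 155 and 138 CPM (log2 -0.05 ± 0.06, adjusted p = 0.57).

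In lipid metabolism, 16 of 33 genes of cholesterol synthesis and uptake rose and 0 fell (median log2 0.29), and 10 rose without untreated replicate 2. Idi1, an isomerase early in the sterol path, stood at 22 and 19.7 CPM untreated and 41 and 33.9 CPM with PM2.5 (log2 0.85 ± 0.09, adjusted p = 3.0e-05). Hmgcs1, which forms the precursor of mevalonate, stood at 48.4 and 46.8 and 77.9 and 61.9 CPM (log2 0.56 ± 0.11, adjusted p = 0.0017). The groups were separate, with PM2.5 replicate 1 above replicate 2 in both. Abca1, which exports cholesterol and is induced when sterols are plentiful, rose too, from 22.2 and 15.4 to 33.8 and 49.8 CPM (log2 1.14 ± 0.16, adjusted p = 1.7e-04), with replicate 2 the higher one. Of 36 genes of fatty acid synthesis and storage 11 rose and 7 fell (median log2 0.05), with 7 rises without untreated replicate 2. Fasn, fatty acid synthase, went from 95.8 and 90.0 to 139.8 and 137 CPM (log2 0.57 ± 0.06, adjusted p = 9.7e-06), while Scd1, the main desaturase, was at 255 and 238 and 251 and 260.2 CPM (log2 0.05 ± 0.05, adjusted p = 0.52). Srebf2, the transcription factor of the sterol genes, was at 175 and 162 and 184 and 176 CPM (log2 0.09 ± 0.06, adjusted p = 0.31).

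Among matrix genes, 11 of 25 laminin, hemidesmosome and basement membrane genes rose and 1 fell, with 4 rises without PM2.5 replicate 2 and 6 without untreated replicate 2. Lama5, a laminin chain, stood at 105 and 103 CPM untreated and 148 and 148 CPM with PM2.5 (log2 0.51 ± 0.06, adjusted p = 4.1e-05). Of 29 collagen chains 7 rose and 0 fell, with 4 rises without PM2.5 replicate 2 or without untreated replicate 2. Of 24 genes of collagen crosslinking and hydroxylation 8 rose and 5 fell, and 3 fell without PM2.5 replicate 2 or without untreated replicate 2, with Lox, which crosslinks collagen, rising from 1389 and 1450.4 to 1899 and 1885 CPM (log2 0.41 ± 0.06, adjusted p = 3.0e-04) and P4ha1, which hydroxylates its prolines, falling from 1178 and 1254 to 771 and 706 CPM (log2 -0.72 ± 0.07, adjusted p = 1.9e-05). Of 48 TGF-beta and BMP genes 10 rose and 5 fell (median log2 0.05), with 3 falls without PM2.5 replicate 1. Inhbb, a chain of activin, stood at 15.3 and 11.2 CPM and 29.9 and 38.1 CPM (log2 1.35 ± 0.13, adjusted p = 7.8e-06), and Fst, which captures activin, at 17.1 and 14.1 and 25.5 and 31.1 CPM (log2 0.85 ± 0.11, adjusted p = 1.2e-04). Of 16 genes of plasminogen activation and serpins 7 rose and 1 fell (median log2 0.18). Plau, a plasminogen activator, rose from 31.6 and 26.6 to 43.9 and 47.2 CPM (log2 0.64 ± 0.09, adjusted p = 2.3e-04). Of 19 clock genes 8 fell and 1 rose. Per2 stood at 48.2 and 59.1 CPM untreated and 32.1 and 33.3 CPM with PM2.5 (log2 -0.71 ± 0.08, adjusted p = 3.8e-05) and Cry2 at 29.8 and 33.3 and 24.8 and 22.9 CPM (log2 -0.40 ± 0.07, adjusted p = 0.0012), both part of the repressive arm, while Dbp and Nr1d1, clock outputs, did not pass (log2 0.01 and 0.14). The hour of collection was not analysed here.

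A change of less than 2-fold in an abundant gene moves more RNA than a large one in a scarce gene. Among called genes under 2-fold, the largest gains in mean CPM outside the mitochondrial genome were in Slpi, an inhibitor of neutrophil elastase, from 1039 and 642 CPM untreated to 1373 and 1816 CPM with PM2.5 (log2 0.92 ± 0.17, adjusted p = 0.0012), and Ftl1, the ferritin light chain, from 3343 and 3365 to 4016 and 4138 CPM (log2 0.28 ± 0.07, adjusted p = 0.008). The untreated libraries differed widely in Slpi and were almost equal in Ftl1. Thbs1, the matrix protein thrombospondin, rose from 1056 and 784 to 1393 and 1639 CPM (log2 0.72 ± 0.11, adjusted p = 3.3e-04). On the side of losses, Ero1a, the oxidase that forms disulfides in the endoplasmic reticulum and a hypoxia target, fell from 9305 and 10705 to 7058 and 6041 CPM (log2 -0.61 ± 0.09, adjusted p = 1.9e-04). Fn1, fibronectin, fell from 12084 and 11991 to 10092 and 10292 CPM (log2 -0.24 ± 0.07, adjusted p = 0.017). Ndrg1, a stress-responsive gene of hypoxia, fell from 2453 and 2679.8 to 1819 and 1622 CPM (log2 -0.58 ± 0.07, adjusted p = 3.6e-05). All 3 had separate groups, and the other large losses included P4hb, a disulfide isomerase of the endoplasmic reticulum whose call was lost without PM2.5 replicate 2 (log2 -0.20, adjusted p = 0.079), and several ribosomal protein genes.

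Of the called genes, 943 of 3726 belong to one of the 72 lists. Outside them, the smallest p-values among rises were those of Adh7, an alcohol and retinol dehydrogenase, at 69.6 and 71.2 CPM untreated and 123 and 122 CPM with PM2.5 (log2 0.80 ± 0.05, adjusted p = 5.4e-07), and Arhgap11a, a regulator of cytokinesis, at 46 and 43.3 and 81.6 and 81.2 CPM (log2 0.87 ± 0.06, adjusted p = 5.4e-07). Chd3, a chromatin remodeller, stood at 50.5 and 50.9 and 86.3 and 94.5 CPM (log2 0.83 ± 0.06, adjusted p = 7.8e-07). Replicates of a group lay close together in these 3 genes. Among falls one of the smallest p-values was that of Crtc3, a coactivator of CREB, at 71.3 and 70.9 CPM untreated and 46.3 and 44.3 CPM with PM2.5 (log2 -0.65 ± 0.05, adjusted p = 3.9e-06). Polr2a, the largest subunit of RNA polymerase II, fell from 345 and 402 to 236 and 202 CPM (log2 -0.77 ± 0.08, adjusted p = 1.4e-05), and Cd47, which signals against engulfment, from 293 and 315 to 208 and 198 CPM (log2 -0.58 ± 0.05, adjusted p = 7.6e-06).

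The tables of single libraries also gave all reads on a gene, so that reads outside its exons, among them those in introns of unspliced RNA, could be counted apart. This was chosen after the data had been seen, the reads come from the same libraries, and an overlapping gene can add to them. Such reads were 11.3 to 12.5% of gene reads in the 4 libraries. Of 12440 genes tested on them, 1779 were called (14.3%). Among 3438 genes called on exon counts and tested here, 1086 were also called on reads outside exons, 1076 of them in the same direction and 10 in the opposite one. By sign alone, called outside exons or not, 86.7% of the 3438 genes went the same way on both measures. On these reads all 13 mitochondrial mRNAs were called higher, and 11 of 23 tRNA synthetases lower and 0 higher. Of 28 hypoxia targets 11 were called lower and 1 higher. The counts of the last 2 lists were not matched gene by gene with the exon calls. Mitochondrial genes have no introns, so their reads outside exons do not come from introns.

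In some genes the exon change was larger than that outside exons. Itgb4, the beta chain of the hemidesmosome integrin, rose on exon counts (log2 2.22 ± 0.07, adjusted p = 2.4e-10) and by 0.63 outside exons (adjusted p = 2.0e-04). Tfrc, the transferrin receptor, whose mRNA is stabilised when iron is short, fell on exons (log2 -1.46 ± 0.10, adjusted p = 7.8e-07) and had -0.49 outside them (adjusted p = 0.0025). Polr2a had -0.10 outside exons (adjusted p = 0.70) and Il1a 0.22 (adjusted p = 0.66). Gars1 went further outside exons, at -1.29 (adjusted p = 3.6e-15), than on them, at -0.65. In Hspb8, a small heat shock protein, the 2 measures opposed each other, with a rise on exons (log2 0.29 ± 0.06, adjusted p = 0.0021) and -1.21 outside (adjusted p = 1.8e-13). Pdia6, named above as a fall, was opposed too, with log2 -0.27 on exons and 0.45 outside (adjusted p = 5.6e-04). Of the cytosolic ribosomal protein genes, 8 of 82 fell and 4 rose outside exons (median log2 0.08), against the 7.15% and 7.15% of all genes tested on these reads. The exon and outside-exon changes of a gene were not tested against each other.

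**Figure D4:**
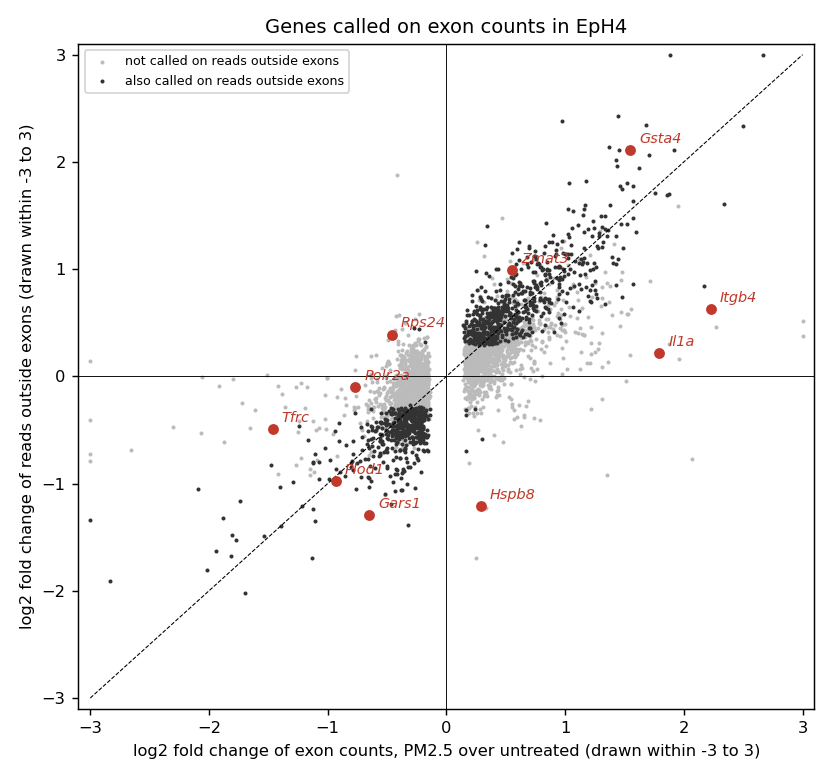
Log2 fold change (PM2.5 over untreated) on reads outside exons against that on exon counts, for genes called on exon counts; black points were also called on reads outside exons, and the dashed line marks equal changes. Itgb4 lies far below the line with 2.22 on exons and 0.63 outside, and Hspb8 lies in the opposite quadrant with 0.29 and -1.21.

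EpH4-AS spheroids were treated with PM2.5 too, and the 2 effects share no control library. The difference of the 2 effects was called for 1932 of 13716 genes (14.1%), and for 1375 of the 3726 genes called in EpH4 (36.9%). It was called for 72 of 82 cytosolic ribosomal protein genes, with the EpH4-AS value the higher in 72. In EpH4-AS 38 of them rose and 0 fell (median log2 0.22, against shares of 6.39% and 4.75% of all genes). The EpH4-AS value was also the higher, with a called difference, for 23 of 34 endoplasmic reticulum genes, 17 of 24 ATF4 genes and 14 of 23 tRNA synthetases. Hspa5 changed by -0.37 in EpH4 and by 0.37 in EpH4-AS (adjusted p of the difference 0.002). Mitotic genes differed in 26 of 37 cases, with 1 called rise in EpH4-AS. For Slc7a11 the log2 change was 1.29 in EpH4 and 1.19 in EpH4-AS, and the difference between lines was not called (adjusted p = 0.67). The libraries of the lines differ in kind, with 3.39 to 3.59% of gene reads outside exons and 0.219 to 0.302% of counts from mitochondrial genes in EpH4-AS. The part of this in the differences between lines was not tested.

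**Figure D5:**
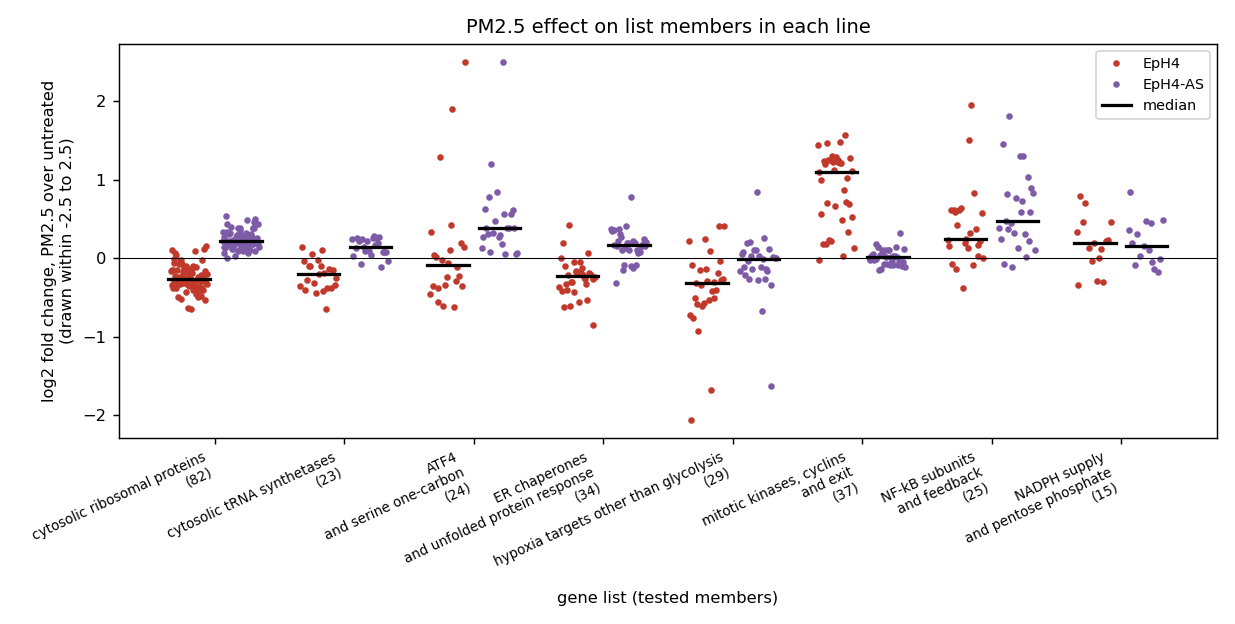
Log2 fold change with PM2.5 of the tested members of 8 gene lists in EpH4 (red, left of each pair) and EpH4-AS (violet, right); each point is a gene and black bars are medians. Ribosomal protein genes lie below 0 in EpH4 (median -0.27) and above it in EpH4-AS (median 0.22), and mitotic genes rise in EpH4 with a median of 1.10.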

How the data were processed

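Gene counts were deposited by the authors per library and as a table of all libraries, with RPKM values from the authors, per the file headers scaled by length and depth. The build was GRCm39 per the submitters' processing notes, and for aligner, counter and strand use the entry is: not given in the sources used here. Counts were filtered (filterByExpr), scaled (TMM) and tested in edgeR 4.0.16 (R 4.3.3) with the quasi-likelihood F test over all 8 libraries as 4 groups. P-values were adjusted over 13716 genes by Benjamini-Hochberg and called below 0.05. Standard errors derive from the F statistic, and log2 changes are edgeR's fitted values. On simulated data with 200 changed genes among 13492, 80.6% were recovered at 1.5-fold, 100.0% at 2-fold and 98.5% at 4-fold, and 7% of calls were false. The changed genes were drawn from those at 1 CPM or more in untreated EpH4, so recovery among scarcer genes was not tested. No change under 1.5-fold was simulated, though 1678 called genes moved by less than 1.25-fold and 1176 by 1.25- to 1.5-fold. The simulated spread was the one fitted to these libraries, so it cannot show spread between separate cultures. Alternatives used limma 3.58.1 and DESeq2 1.42.0. Reads outside exons, the authors' total reads on a gene less its exon count, were tested the same way. RefSeq promoters were matched by symbol or Ensembl ID. Per list, up to 6 called genes with the smallest p at 5 CPM or more could be named, and preset key genes. The largest CPM shifts under 2-fold and the smallest p outside the lists could be named too. All but the key genes had to have groups that did not overlap. The comparison and lists were chosen with earlier results of these data known. Some genes that this rule allows were left out of the text.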

Additional observations from a re-analysis of the deposited data

Results flagged for a closer look

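12 of the genes named above were called in both lines with opposite signs, and the difference between the effects was itself called in edgeR's test of the interaction. The difference is the log2 change in EpH4-AS minus that in EpH4. 9 of them fell in EpH4 and rose in EpH4-AS. The widest of these differences was in Gsto1, the glutathione transferase that fell in EpH4, at 1.35 (-0.39 in EpH4 and 0.96 in EpH4-AS, adjusted p of the difference 6.9e-05). Genes of stress signalling and translation followed it in size, namely Ppp1r15a at 1.34 (-0.56 and 0.78), Nupr1, a stress-induced chromatin protein, at 1.09 (-0.62 and 0.48), Rpl12 at 0.94 and Map1lc3b at 0.91. Hspa5 differed by 0.74, Cdkn2b by 0.70, Asns by 0.69 and Nars1 by 0.67. The other 3 rose in EpH4 and fell in EpH4-AS. Lox, the collagen crosslinker, differed by -2.05 (0.41 in EpH4 and -1.63 in EpH4-AS, adjusted p of the difference 1.5e-08), Thbs1 by -1.13 and Hif1a by -0.39.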

How the results depend on the processing

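Of the named genes with a call, 94 of 101 kept direction and call under every alternative except the test against a 1.5-fold change (TREAT). Many of these genes were picked for a small p, so keeping the call is partly built into the choice and is no further support. Against 1.5-fold, 184 genes were called, 148 higher and 36 lower, 164 of them over 2-fold, and 66 differences between lines, since that test asks for a larger change. DESeq2's Wald test called 2330 (1224 higher, 1106 lower, 234 over 2-fold), and limma on log2 of RPKM plus 1 called 67 over 2-fold. The cause was not tested for DESeq2, and adding 1 shrinks the changes of low genes. With each EpH4 library left out in turn, 2145 to 3987 genes were called, 1201 to 2128 higher, 944 to 1859 lower and 233 to 508 over 2-fold, the lone library taken to vary like the other groups. The labels' replicate numbers did not pair the libraries (correlation of deviations -0.10). A replicate block called 3258, the crossed block, added after the data were seen, 4118, and the EpH4 libraries alone 2558, where Fn1, Ftl1, Hspa5, P4hb and Xbp1 lost their calls. Other scalings and filters moved the median gene by at most 0.015. No named gene with a call reversed. Of those without one, 11 changed sign when a library was left out, with log2 ranges of B2m -0.060 to 0.11, Cdkn1b -0.22 to 0.029, Dbp -0.14 to 0.16, Gpx4 -0.0058 to 0.033, Hspa1a -0.61 to 0.11, Lcn2 -0.18 to 0.031, Myc -0.023 to 0.057, Pdk1 -0.14 to 0.032, Rplp0 -0.028 to 0.11, Srxn1 -0.066 to 0.12 and Tfam -0.046 to 0.071. With no filter, Dbp (-0.0032), Gpx4 (-8.5e-04) and Tfam (-1.5e-04) changed sign. With 2 libraries a group and 4 residual degrees of freedom, small changes in scarce genes may be missed.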
